A study of Mus musculus with 8 samples.

Results

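Cells labelled as untreated disseminated cancer cells from bone marrow (DCC control) were compared with cells of an early mammary tumour lesion (early lesion). Each group held 2 libraries. These are 4 of the 8 RNA-seq libraries of a mouse breast cancer series, chosen by their group labels, and all 23478 gene rows of the count table were read for them. The study's design text asks how the expression of disseminated cells differs from that of tumours, and how CD4 Th1 immunity alters it. The other 4 libraries, interferon-gamma-treated disseminated cells and the TUBO breast cancer line, entered the estimate of the spread between replicates and, for Mki67 in TUBO, are given beside the groups compared. The DCC control cells had been isolated from the marrow of mice with spontaneous metastasis of breast cancer and kept in standard culture, with the treatment given as control. The early lesion cells are labelled as primary isolated cancer cells with the treatment control, and their titles name neuT, an activated form of the rat Erbb2 oncogene. The labels give the genotype of all 4 libraries as WT, which the neuT title of the early lesion does not match, and the treatment protocol speaks of a transgenic model. The promoter of the transgene, the age and number of the animals, and the time in culture are not given in the sources used here. Both groups are labelled as biological replicates 1 and 2, but nothing says which animals or cultures they came from, so p-values measure the spread between these libraries only.

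Mammary carcinoma cells driven by Erbb2 are epithelial: they are held together by E-cadherin, claudins and desmosomes, carry keratin filaments and often make milk proteins. Cells that leave an epithelium can lose these traits and gain vimentin, fibronectin and collagens under the transcription factors Snail, Zeb and Twist, a change called epithelial-mesenchymal transition. Bone marrow also holds mesenchymal cells of its own, stromal cells and osteoblasts, which make the same filaments and collagens together with bone proteins.

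Between 15432210 and 30168475 reads were counted on genes per library, so that 3 counts, taken here as the limit of detection, stood for 0.0953 to 0.183 CPM (counts scaled to library size). In a principal component analysis of the 4 libraries the first component held 92.4% of the variance and parted the groups. The second component, with 5.64%, set DCC control replicate 1 and early lesion replicate 2 against the other two. These libraries stood apart in other ways. Reads outside annotated genes made up 49.2% and 44.1% of all reads in them, against 31.0% in DCC control replicate 2 and 27.4% in early lesion replicate 1. Of 1450 olfactory and vomeronasal receptor genes, known mainly from sensory neurons, 47.7% and 63.7% had a count there, against 11.9% and 1.24%. Many genes near the detection limit in early lesion replicate 1 accordingly had about 1 CPM in replicate 2. The counts of each list of genes below are therefore also given with both of these libraries left out, a fit in which 1 library stands for each group and is assumed to vary like the other groups.

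In all, 3253 of 17069 tested genes were higher in DCC control (19.1%) and 3188 were lower (18.7%), by edgeR's quasi-likelihood test at a Benjamini-Hochberg adjusted p under 0.05. The 2 libraries of each group did not overlap in 38.6% of tested genes with DCC control higher and in 31.8% with DCC control lower. Of the called genes, 2322 were at least 2-fold higher and 2258 at least 2-fold lower, and 803 and 538 passed 16-fold. Over 9536 genes with at least 10 CPM, the median difference between replicates was 0.16 (log2) in DCC control and 0.14 in the early lesion, against 0.66 between the group means. With both libraries named above left out, 2054 genes were higher and 2058 lower, and no gene called in both fits changed its sign. The median log2 fold change (DCC control minus early lesion) of all tested genes was 0.23, and the medians of the lists below are to be read beside it. Counts of called members are likewise to be read beside the shares of 19.1% and 18.7% among all tested genes. Because these are bulk libraries, fewer cells of a type and less RNA per cell cannot be told apart in any of these results.

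**Figure D1:**
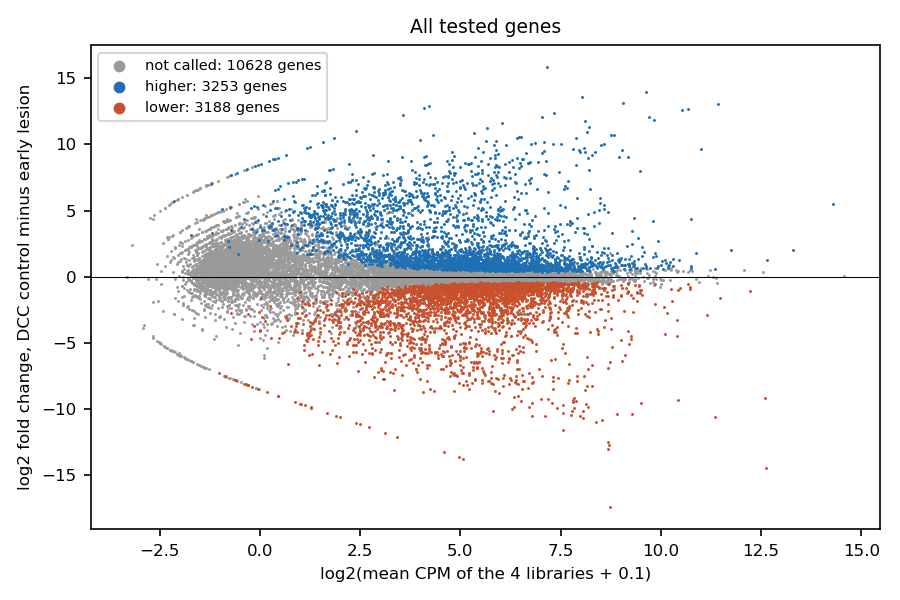
Log2 fold change of DCC control over the early lesion (vertical axis) against log2 of the mean CPM of the 4 libraries plus 0.1 (horizontal axis) for 17069 tested genes, each a point. Blue points are the 3253 genes called higher in DCC control, red points the 3188 called lower and grey points the 10628 not called, and the bands of points that curve away on the left come from genes at 0 in a group.

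The genes that hold an epithelium together were low in the libraries labelled DCC control. Of 28 tested genes of epithelial junctions and adhesion 27 were lower and 1, the P-cadherin gene Cdh3, was not called, with a median log2 fold change of -7.21. The count was also 27 with both of the libraries that stood apart left out. Their summed level was 46.0 and 38.7 CPM in DCC control and 4720 and 4511 CPM in the early lesion. Epcam, an adhesion molecule of carcinoma cells used as their marker, had 0 and 0.158 CPM in DCC control and 836 and 794 CPM in the early lesion. Its log2 fold change was -12.99 ± 0.41 (SE, adjusted p = 3.64e-08). Cdh1, the gene of E-cadherin and the defining gene of adherens junctions (chromosome 8, 106603351 to 106670246 in GRCm38), had 0.426 and 0.277 CPM against 521 and 485 CPM. The replicates of each group lay close together and the groups were far apart, with a fold change of -10.52 ± 0.29 (adjusted p = 1.01e-08). The tight junction genes Cldn3 (-9.56 ± 0.25), Cldn4 (-8.59 ± 0.46) and Cldn7 (-7.63 ± 0.22) followed the same order. The claudin family as a whole did not. Of 16 tested claudins, collected by symbol after values were seen, 6 were lower, 1 was higher and 9 were not called (median -0.78). Their summed level was 142 and 151 CPM in DCC control against 682 and 680 CPM in the early lesion. Dsp, the desmosomal anchor of keratin filaments, had 2.80 and 1.15 CPM in DCC control and 453 and 381 CPM in the early lesion. Jup, plakoglobin, which sits in both kinds of junction, had 5.97 and 7.37 CPM against 812 and 805 CPM. Esrp1, which splices transcripts into their epithelial forms, had 1.58 and 0 CPM against 138 and 128 CPM. The labels call the DCC control libraries cancer cells of a breast cancer. The carcinoma markers Epcam and Cdh1 were near the detection limit in them, as were the keratins Krt8 and Krt18 described next. The junction genes Jup and Dsp were above that limit but far under their level in the early lesion.

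All 4 luminal keratins tested were lower, with a median of -10.54, and all 4 were lower with both libraries left out. Krt8 and Krt18 pair into the filaments of simple epithelia. Krt8 had 0.304 and 0.317 CPM in DCC control and 439.5 and 428 CPM in the early lesion (-10.42 ± 0.28, adjusted p = 1.01e-08). Krt18 had 0 and 0.238 CPM against 849 and 784 CPM, and Krt7 had 0.791 and 0 CPM against 537 and 529 CPM. Krt19 was low in the early lesion as well, at 6.17 and 4.01 CPM, and lower still at 0.183 and 0.158 CPM in DCC control, a call gone once DCC control replicate 2 was removed (adjusted p = 0.0516). The basal and stratified keratins were at trace level in both groups, with sums of 2.50 and 0.713 CPM against 0.477 and 2.10 CPM. No basal keratin was called in either direction by edgeR, with all libraries or with both left out, while 1 of 4 tested was lower both at an unadjusted p under 0.05 and in DESeq2. Krt14 and Krt17, basal markers, were too low to be tested.

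The promoters of some of these genes share a short motif, shown here because Zeb and Snail factors, described further on, are known to bind it. Whether these factors acted on the genes in these cells was not tested. The motif is CAGGTG, which reads as CACCTG on the other strand, and both strands were searched in windows of 300 bases, 250 before and 50 after each start site, in the RefSeq promoter table for GRCm38.p6. It was present in 1 or more windows of 13 of the 17 epithelial junction genes that the table holds (76.5%) and of 3 of 3 luminal keratin genes. Of 12347 tested genes with a window 22.0% held it, with 27.8% among genes called lower, 16.3% among genes called higher and 22.0% among genes not called. Cdh1, described above, was not among the 13 junction genes with a match. A match describes the letters only and is not a binding site. The first 250 bases of 5 of these windows, up to the start site, are printed 5′ to 3′ on the strand of the gene, with the motif in capitals.
Epcam, chr17:87635729-87635978, plus strand: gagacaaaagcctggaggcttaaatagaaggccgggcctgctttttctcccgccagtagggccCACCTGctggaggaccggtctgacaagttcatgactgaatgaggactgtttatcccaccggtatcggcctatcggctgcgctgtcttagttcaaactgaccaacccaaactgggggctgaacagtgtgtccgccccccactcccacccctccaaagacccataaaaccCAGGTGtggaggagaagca
Cldn4, chr5:134946935-134947184, minus strand: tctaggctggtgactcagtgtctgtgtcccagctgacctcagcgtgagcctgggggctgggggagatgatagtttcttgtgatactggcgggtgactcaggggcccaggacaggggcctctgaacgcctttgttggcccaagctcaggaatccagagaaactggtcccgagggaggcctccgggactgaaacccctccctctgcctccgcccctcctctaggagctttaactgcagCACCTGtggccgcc
Cldn7, chr11:69965171-69965420, plus strand: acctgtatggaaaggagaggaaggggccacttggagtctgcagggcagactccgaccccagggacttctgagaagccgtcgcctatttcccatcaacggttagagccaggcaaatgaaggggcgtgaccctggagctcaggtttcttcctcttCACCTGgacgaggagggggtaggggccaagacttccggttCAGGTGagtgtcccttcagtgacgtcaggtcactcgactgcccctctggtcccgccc
Krt8, chr15:102004343-102004592, minus strand: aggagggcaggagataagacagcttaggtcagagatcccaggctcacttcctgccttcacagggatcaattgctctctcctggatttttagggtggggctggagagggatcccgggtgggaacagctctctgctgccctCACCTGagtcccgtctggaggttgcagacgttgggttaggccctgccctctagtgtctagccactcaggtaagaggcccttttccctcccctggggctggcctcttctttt
Krt18, chr15:102027966-102028215, plus strand: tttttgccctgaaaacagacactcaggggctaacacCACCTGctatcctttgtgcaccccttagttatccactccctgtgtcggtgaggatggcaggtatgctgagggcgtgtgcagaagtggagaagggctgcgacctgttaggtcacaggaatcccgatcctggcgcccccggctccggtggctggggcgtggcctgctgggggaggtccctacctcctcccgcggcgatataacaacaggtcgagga
In Epcam the matches begin 187 and 19 bases before the start site, in Cldn7 97 and 57, in Krt8 111 and in Krt18 214. In Cldn4 the match shown begins 14 bases before the start, and another lies in the bases after it that are not printed. AACCGG, a core of the sites of the epithelial Grainyhead factors, was in windows of 5 of the 17 junction genes (29.4%) and of 0 of 3 keratin genes, against 11.4% of all tested genes with a window.

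Transcription factors of mammary epithelium divided. Of 22 tested, 11 were lower, 5 were higher and 6 were not called (median -1.60), with 13 lower and 5 higher when both of the libraries that stood apart were left out. Sox10, a factor of neural crest and of part of the mammary epithelium, had 0 and 0.198 CPM in DCC control and 857 and 824 CPM in the early lesion (-12.73 ± 0.50, adjusted p = 9.31e-08). Ehf, an Ets factor of epithelia, had 2.19 and 1.98 CPM against 513 and 443 CPM, and Elf5, the driver of milk-producing alveolar cells, had 0 and 1.39 CPM against 143 and 127 CPM. Gata3, which keeps luminal cells differentiated, had 5.72 and 3.60 CPM against 204 and 164 CPM (-5.32 ± 0.32). Tfap2c, a factor of luminal cells, had 0.852 and 0.0792 against 458 and 423 CPM. Grhl2 and Ovol2, which hold cells in an epithelial state, were also lower, Grhl2 by -5.87 ± 0.23 and Ovol2 by -4.12 ± 0.73. The 5 members that were higher in DCC control were of other kinds. The oestrogen receptor gene Esr1 was higher in DCC control, with 11.5 and 9.11 CPM against 0.254 and 0.937 CPM. Trp63, a factor of basal epithelium, had 63.5 and 80.0 CPM against 0.413 and 2.01 CPM (5.96 ± 1.06, adjusted p = 0.00483). Trp63 was not called once DCC control replicate 2 was removed (adjusted p = 0.0748). Pgr and Foxa1, partners of the oestrogen receptor in luminal cells, were under 1.2 CPM in every library and not called.

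Part of the milk and secretory genes were abundant in the early lesion and low in DCC control. Of 19 tested, 12 were lower in DCC control and 7 were not called (median -4.43, 12 lower also with both libraries left out), and the summed level was 202 and 198 CPM against 37180 and 31470 CPM. Csn3, kappa-casein, which stabilises casein micelles, had 1.22 and 0.0792 CPM in DCC control and 14470 and 10830 CPM in the early lesion (-14.46 ± 0.78, adjusted p = 2.79e-06). Wfdc18, a secreted protease inhibitor of the mammary gland, had no count in DCC control and 923 and 778 CPM in the early lesion, at least 5644-fold lower when 3 counts per library are taken as the limit. Trf, transferrin, had 4.57 and 2.50 CPM against 5337 and 5076 CPM, and Mfge8, the milk fat globule protein, 110.4 and 129 CPM against 2668 and 2499 CPM. The iron-binding lipocalin Lcn2 had 24.6 and 18.5 CPM against 13160 and 11720 CPM, and it was not called once DCC control replicate 2 was removed (adjusted p = 0.0701). Some other milk genes were not part of this. Csn2 and Wap were too low to be tested in any of the 4 libraries, and Lalba had 0 CPM against 1.33 and 2.01 CPM and was not called.

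**Figure D2:**
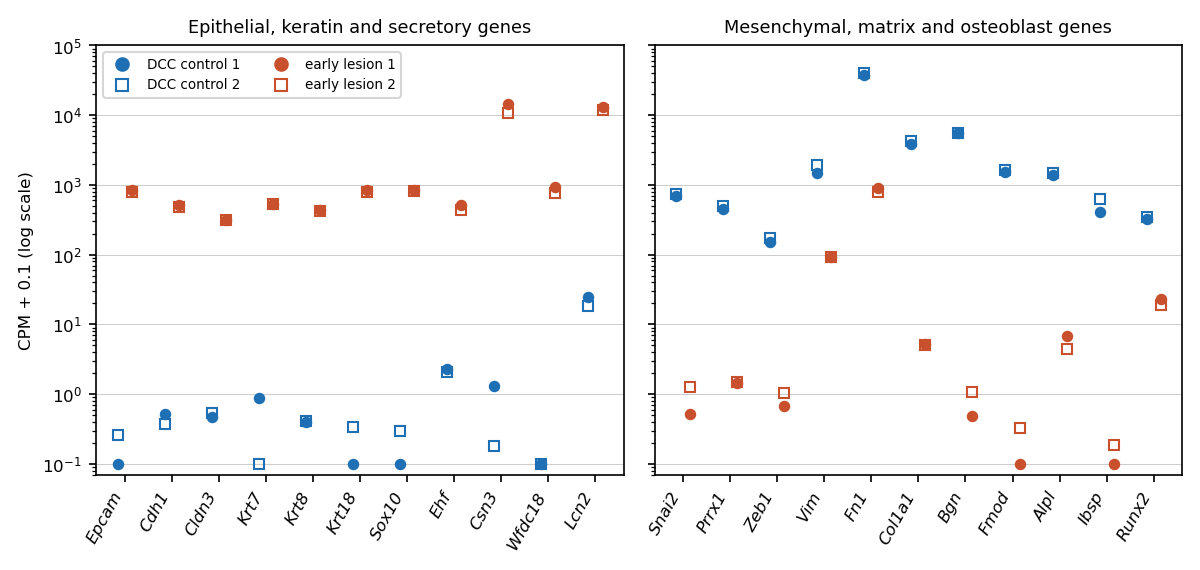
CPM plus 0.1 (vertical log axis) of 11 epithelial and secretory genes (left) and 11 mesenchymal, matrix and osteoblast genes (right) in each of the 4 libraries, with blue for DCC control and red for the early lesion, filled circles for replicate 1 and open squares for replicate 2. The replicates of a group lie close together for all genes with more than a few CPM, every gene on the left is higher in both early lesion libraries and every gene on the right is higher in both DCC control libraries.

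Erbb2 and its relatives form the receptor family that drives this tumour model. Of 14 tested receptors and ligands 8 were lower, 1 was higher and 5 were not called (median -2.88, 7 lower and 1 higher with both libraries left out). Erbb2 (chromosome 11, 98412470 to 98437716) had 21.2 and 23.3 CPM in DCC control and 245 and 238 CPM in the early lesion, a change of -3.44 ± 0.15 (adjusted p = 8.86e-08). Reads of the rat neuT transgene can map to the mouse gene, and how many did was not tested. Erbb3, the partner of Erbb2, had 0.609 and 0.673 CPM against 159 and 167 CPM (-7.97 ± 0.21), and Egfr had 2.92 and 3.60 CPM against 34.3 and 31.4 CPM (-3.32 ± 0.24). Among ligands, Tgfa had 0.791 and 0.317 CPM against 50.3 and 54.5 CPM and Areg had 2.13 and 0.713 CPM against 19.9 and 18.4 CPM. Ereg, epiregulin, went the other way, with 112 and 104 CPM in DCC control and 0.286 and 0.981 CPM in the early lesion (7.50 ± 0.88, adjusted p = 7.70e-04). Dusp6 and Etv5, genes induced by signalling of these receptors, were chosen after their values were seen. Dusp6, a phosphatase that shuts off the kinase Erk, had 37.9 and 36.0 CPM in DCC control against 989 and 989.6 CPM. Etv5, an Ets factor downstream of Erk, had 57.2 and 48.2 CPM against 757 and 678 CPM.

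Transcription factors of mesenchymal cells were higher in DCC control, with a summed level of 2659 and 2814 CPM against 154 and 135 CPM in the early lesion. Of 15 tested, 14 were higher and 1, Osr1, was not called, with a median of 5.91 (13 higher with both libraries left out). Tcf21 and Osr2 were too low to be tested. Snai2, Slug, a repressor of epithelial genes (chromosome 16, 14705852 to 14709385), had 706 and 748 CPM in DCC control and 0.413 and 1.16 CPM in the early lesion (9.92 ± 0.78, adjusted p = 1.15e-04). Zeb1, a repressor of Cdh1, had 154 and 173 CPM against 0.572 and 0.937 CPM (7.79 ± 0.33), and its relative Zeb2 had 364 and 408 CPM against 3.81 and 2.68 CPM. The libraries of each group lay together in all 3 genes. Twist1, which directs mesoderm, had 128 and 120.3 CPM against 4.89 and 5.40 CPM. The homeobox genes of limb and skeletal mesenchyme Prrx1 and Prrx2 were on the same side. Prrx1 had 449 and 499 CPM against 1.33 and 1.38 CPM, and Prrx2 had 128 and 132 CPM against 2 counts over both lesion libraries, a ratio of 3514 (95% counting interval 972 to 29020). Foxf1, a forkhead factor of visceral mesenchyme, had 52.7 and 57.5 CPM against 0 and 0.178 CPM.

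All 9 tested genes of the mesenchymal cytoskeleton and adhesion were higher in DCC control (median 4.19, 8 with both libraries left out). Vim, vimentin, the filament of mesenchymal cells, had 1465 and 1903 CPM in DCC control and 92.8 and 91.5 CPM in the early lesion (4.19 ± 0.26, adjusted p = 7.67e-07). The early lesion thus was not free of vimentin. Cdh2, N-cadherin, was likewise present in both groups, with 128 and 143 CPM against 28.1 and 24.3 CPM (2.37 ± 0.30). Cdh11, the cadherin of osteoblasts and fibroblasts, had 241 and 317 CPM against 0.35 and 1.03 CPM. S100a4, a calcium-binding protein of motile cells, had 161 and 270.0 CPM against 1.56 and 0.803 CPM. Fap, a protease of activated fibroblasts, had 36.6 and 47.5 CPM against 0 and 1.03 CPM, a call gone once replicate 1 (adjusted p = 0.0755) or replicate 2 (0.236) of DCC control was removed. Thy1, a surface marker of stromal cells, was too low to be tested.

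Fibrillar collagens and the enzymes that process them were mostly higher in DCC control. Of 27 tested, 23 were higher, 1 was lower and 3 were not called (median 4.92), and the counts were 22 and 0 with both libraries left out. Col1a1, the main chain of bone and skin collagen (chromosome 11, 94936224 to 94953042), had 3900 and 4274 CPM in DCC control and 5.12 and 5.0 CPM in the early lesion (9.66 ± 0.50, adjusted p = 1.38e-06). Col3a1 had 2969 and 3629 CPM against 0.0954 and 1.03 CPM, and Col6a1, a chain of the microfibrils around cells, 1634 and 1707 CPM against 0.0636 and 0.803 CPM. Col3a1 and Col6a1 had their higher lesion value in replicate 2, and the groups were still far apart. Lox, which cross-links collagen, had 763 and 969 CPM against 0.0954 and 1.07 CPM, and Pcolce, which speeds the cleavage of procollagen, 589 and 584 CPM against 0.0318 and 0.491 CPM. Col11a1 was the exception among the chains, at 1451 and 1638 CPM against 1248 and 1111 CPM and not called (0.39 ± 0.47, adjusted p = 0.636). The cross-linking enzyme Loxl3 was lower, with 40.5 and 53.6 CPM against 204 and 187 CPM (-2.05 ± 0.41, adjusted p = 0.00682). Loxl3 was not called once replicate 1 (adjusted p = 0.0604) or replicate 2 (0.0607) of DCC control was removed, nor with both libraries that stood apart left out (0.0755).

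All 9 tested leucine-rich proteoglycans with versican were higher (median 7.51, 7 with both libraries left out). The leucine-rich members coat collagen fibrils and set their width. Bgn, biglycan (chromosome X, 73483602 to 73495933), had 5497 and 5533 CPM in DCC control and 0.381 and 0.981 CPM in the early lesion (13.05 ± 0.63, adjusted p = 8.31e-07). Fmod, fibromodulin, had 1542 and 1640 CPM against 0 and 0.223 CPM. Ogn, osteoglycin, had 270.5 and 374 CPM against 3 counts over both lesion libraries, a ratio of 5988 (95% counting interval 2049 to 29040). Lum, lumican, had 23.4 and 30.2 CPM against 3 counts (ratio 494, interval 169 to 2398).

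Of 21 tested matricellular and fibrillar glycoproteins 16 were higher and 5 were not called (median 4.37, 13 with both libraries left out and 10 once DCC control replicate 2 was removed). Their summed level was 60400 and 69030 CPM in DCC control and 6733 and 5630 CPM in the early lesion. Fn1, fibronectin, the scaffold on which other matrix proteins assemble (chromosome 1, 71585520 to 71653200), had 38200 and 40350 CPM in DCC control and 902 and 786 CPM in the early lesion (5.54 ± 0.46, adjusted p = 5.93e-06). Sparc, which binds collagen and mineral, had 2706 and 3172 CPM against 0.413 and 0.535 CPM. Tnc, tenascin C, a matrix protein of wounds and metastatic niches, had 3247 and 3354 CPM against 166 and 153 CPM. The early lesion held clear amounts of some members. Spp1, osteopontin, which is made by both bone cells and mammary carcinoma, had 13480 and 18830 CPM against 4399 and 3540 CPM (2.02 ± 0.41, adjusted p = 0.00302), and it was not called with both libraries left out (adjusted p = 0.0588). Thbs1, thrombospondin 1, differed by 0.89 ± 0.24, a call gone once replicate 2 of DCC control (adjusted p = 0.104) or of the early lesion (0.0816) was removed, or both libraries that stood apart (0.0903). Postn, periostin, had 18.1 and 25.6 CPM against 5.24 and 3.48 CPM.

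Genes of bone-forming cells were high in DCC control. Of 20 tested osteoblast and mineralisation genes 13 were higher and 7 were not called (median 4.25, 12 with both libraries left out). Runx2, the master factor of osteoblasts, had 325 and 346 CPM in DCC control and 22.9 and 18.7 CPM in the early lesion (4.01 ± 0.20, adjusted p = 1.76e-07), so the gene was also expressed in the lesion. Sp7, osterix, which acts after Runx2, had 190.2 and 208 CPM against 0 and 0.714 CPM, and Dlx5, a homeobox factor of osteoblasts, 88.9 and 98.7 CPM against 0.0318 and 0.268 CPM. Alpl, the phosphatase that supplies phosphate to mineral (chromosome 4, 137741733 to 137796384), had 1382 and 1476 CPM against 6.71 and 4.37 CPM (8.0 ± 0.38). Ibsp, bone sialoprotein, had 410.5 and 633 CPM against 2 counts over both lesion libraries, a ratio of 14680 (95% counting interval 4064 to 121300). Pth1r, the receptor of parathyroid hormone, had 248 and 297 CPM against 0 and 0.535 CPM. Bglap, osteocalcin, the late marker of the lineage, was at 12.8 and 5.70 CPM in DCC control with 3 counts in the lesion (ratio 153, interval 51.8 to 743), and reads may be shared with Bglap2, its close copy. The osteocyte genes Dmp1, Mepe and Phex were not called. The 250 bases before the start site of Runx2 in the RefSeq table for GRCm38.p6 are shown with TGTGGT, the core that Runx factors bind, in capitals as its reverse complement ACCACA.
Runx2, chr17:44814628-44814877, minus strand: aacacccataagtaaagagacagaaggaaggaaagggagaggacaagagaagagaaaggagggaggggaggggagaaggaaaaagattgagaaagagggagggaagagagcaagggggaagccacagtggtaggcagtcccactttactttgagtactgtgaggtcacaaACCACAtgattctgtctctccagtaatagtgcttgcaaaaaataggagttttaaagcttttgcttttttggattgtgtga
The match begins 80 bases before the start, and a further pair lies in the bases after it. TGTGGT was in a window of 5 of 15 osteoblast genes in the table (33.3%) and of 15.5% of all tested genes with a window.

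Of 9 tested cartilage genes 3 were higher, 2 were lower and 4 were not called (median 0.98, 2 higher and 2 lower with both libraries left out). Comp, a matrix protein of cartilage and tendon, had 443 and 388 CPM in DCC control and 22.4 and 26.9 CPM in the early lesion, and Col2a1, cartilage collagen, 32.1 and 26.8 CPM against 0.286 and 1.29 CPM. Col9a1, whose product decorates type II collagen, was the reverse, with 1.52 and 0.119 CPM against 559 and 552 CPM (-9.60 ± 0.70). The list did not move as one.

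Of 20 tested genes of the marrow stromal niche 12 were higher, 3 were lower and 5 were not called (median 2.42, 11 and 2 with both libraries left out). Cxcl12, the chemokine that holds blood stem cells in marrow, had 85.1 and 119 CPM in DCC control and 3.59 and 4.77 CPM in the early lesion (4.61 ± 0.28, adjusted p = 6.26e-07). Csf1, the growth factor of macrophages and osteoclasts, had 1192 and 1261 CPM against 60.5 and 53 CPM, and Angpt1, a ligand of the endothelial receptor Tie2, 101 and 137 CPM against 3.62 and 3.21 CPM. Grem1, an inhibitor of bone morphogenetic proteins, had 337 and 299 CPM against 0.0636 and 0.624 CPM. Lepr, which marks the stromal cells around marrow vessels, had 8.40 and 6.57 CPM against 5.85 and 7.58 CPM and was not called. Nes, nestin, used as a marker of marrow stem cell niches and of some carcinomas, was lower, with 15.8 and 20.8 CPM against 1186 and 993 CPM (-5.89 ± 0.22). Kitl, stem cell factor, was lower too, at 51.4 and 63.4 CPM against 133 and 124 CPM, while its receptor Kit had 0.731 and 0.0396 CPM against 172 and 171 CPM. Cxcr4, the receptor of Cxcl12, had 1.03 and 0.594 CPM in DCC control and 7.25 and 6.20 CPM in the lesion.

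Of 12 fibroblast and stromal markers 11 were tested and 8 were higher (8 also with both libraries left out). Their summed level was 7461 and 8596 CPM in DCC control and 14.9 and 19 CPM in the early lesion. Pdgfra, a receptor on stromal cells, had 21.9 and 28.1 CPM against 8.96 and 7.27 CPM, and Pdgfrb had 131 and 148 CPM against 0.0636 and 1.65 CPM. Contractile genes of smooth muscle and myofibroblasts divided, with 5 of 15 higher, 3 lower and 7 not called, and with 3 and 1 when both libraries were left out. The higher count was likewise 3 once DCC control replicate 2, or early lesion replicate 1, was removed. Acta2, smooth muscle actin, had 23.2 and 35.6 CPM against 0.191 and 0.134 CPM, and Tagln, an actin-binding protein of the same cells, 46.6 and 47.9 CPM against 0.54 and 0.937 CPM. Tpm1, a widely expressed tropomyosin, was lower, at 383 and 420.4 CPM against 751 and 669 CPM, a call lost with both libraries left out (adjusted p = 0.059). Of 9 adipocyte markers tested 3 were higher (4 with both libraries left out), among them Fabp4, a fatty acid carrier, with 31.3 and 36.2 CPM in DCC control and no count in the lesion, at least 294-fold higher. Adipoq and Plin1, which define adipocytes, were not called.

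Matrix proteases and their inhibitors were in part higher in DCC control. Of 22 tested, 15 were higher, 2 were lower and 5 were not called (median 3.71, 12 and 2 with both libraries left out). Mmp13, a collagenase of bone and cartilage, had 919 and 1224 CPM in DCC control and 0.0318 and 0.223 CPM in the early lesion (13.16 ± 1.03, adjusted p = 1.14e-04). The gelatinase gene Mmp2 had 165 and 196 CPM against 11.1 and 11.9 CPM. The inhibitors were on the same side, Timp1 with 473 and 601 CPM against 0.604 and 0.624 CPM and Timp3 with 1678 and 1690 CPM against 279 and 230.4 CPM. Mmp14, a membrane-bound protease that activates Mmp2, was not called, with 155 and 148 CPM against 130.0 and 122 CPM. Mmp15, another membrane-bound member, was lower, at 1.22 and 0.515 CPM against 188 and 186 CPM (-7.84 ± 0.57), and so was Adam12, at 1.46 and 2.14 CPM against 78.8 and 71.2 CPM (-5.35 ± 0.28).

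Laminins, nidogens and type IV collagens, the sheet beneath epithelia, showed no common direction. Of 22 tested, 4 were higher, 4 were lower and 14 were not called (median 0.28), with 7 higher and 3 lower when both libraries were left out and 7 higher without early lesion replicate 2. Of the chains of epithelial laminins, Lama3 had 10.2 and 12 CPM in DCC control against 0.127 and 2.27 CPM and Lamb3 2.13 and 1.70 CPM against 0.667 and 1.78 CPM, neither called, although Lama3 was called higher without early lesion replicate 2 (adjusted p = 0.00252) and with both libraries left out (0.0103). Lama5 was lower (-4.23 ± 0.22), while Lamb1, a chain of many laminins, was higher, at 424 and 425 CPM against 206 and 193 CPM. Hspg2, perlecan, had 1149 and 1171 CPM against 1.40 and 3.17 CPM (9.03 ± 0.61), and Nid1, which links laminin to collagen, 124 and 146 CPM against 1.68 and 3.39 CPM. Col4a1 was lower (-1.73 ± 0.25) and Col4a2, transcribed from the same promoter region in the other direction, was not called, with 368 and 423 CPM against 398 and 388 CPM.

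Among integrins, the receptors for these matrices, 7 of 17 were lower, 5 were higher and 5 were not called (median -0.17, 7 and 5 also with both libraries left out). The lower ones included the laminin receptor of hemidesmosomes. Itga6 had 4.20 and 4.28 CPM in DCC control and 431 and 391 CPM in the early lesion (-6.60 ± 0.20), and its partner Itgb4 had 2.01 and 3.33 CPM against 490.1 and 466 CPM (-7.45 ± 0.66). Itga8, a chain that pairs with Itgb1, had 1.16 and 1.66 CPM against 580.1 and 512 CPM. Itgb3, a chain of the vitronectin receptor, had 2.74 and 1.43 CPM against 149 and 144 CPM, a call gone once DCC control replicate 2 was removed (adjusted p = 0.124). The higher ones included Itga5, the fibronectin receptor chain, with 155 and 164 CPM against 0.159 and 0.937 CPM, and Itga11, a collagen receptor chain of mesenchymal cells, with 350.4 and 379 CPM against 0.0318 and 0.758 CPM (10.03 ± 1.24). The shared chains Itgb1 (787 and 886 CPM against 964 and 916 CPM) and Itgav (185 and 199 CPM against 202 and 179 CPM) were not called.

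**Figure D3:**
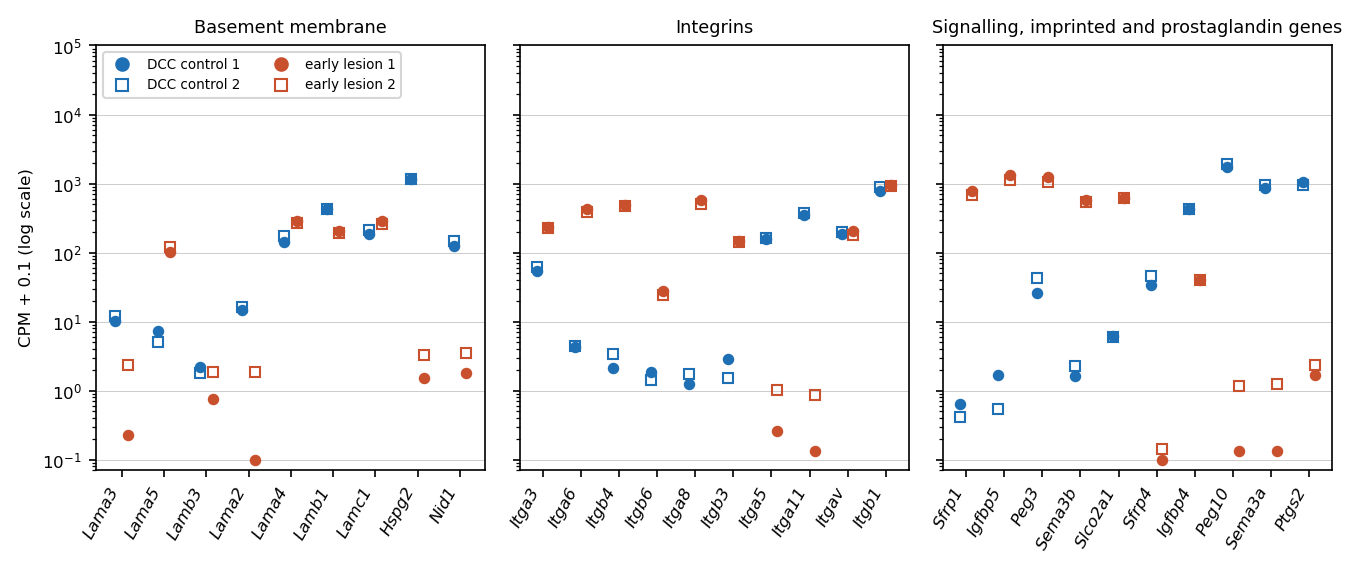
CPM plus 0.1 (vertical log axis) in each of the 4 libraries for members of families that divided between the groups: basement membrane genes, integrins, and signalling, imprinted and prostaglandin genes, with blue for DCC control, red for the early lesion, filled circles for replicate 1 and open squares for replicate 2. Within each panel some genes are higher in both DCC control libraries, such as Hspg2, Itga11 and Peg10, and others in both early lesion libraries, such as Lama5, Itga6 and Sfrp1.

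Ligands and modulators of growth factor pathways differed by gene rather than by pathway. Of 34 tested genes of the TGF-beta and BMP pathways 15 were higher, 4 were lower and 15 were not called (median 1.90, 17 and 4 with both libraries left out). Tgfb1 had 90.7 and 104 CPM in DCC control and 10.8 and 15.4 CPM in the early lesion, a call gone once DCC control replicate 2 was removed (adjusted p = 0.0684). Tgfb2 and Tgfb3 were on the other side, Tgfb2 with 16.7 and 19.1 CPM against 125 and 107 CPM and Tgfb3 with 17.4 and 14.7 CPM against 185 and 166 CPM. Bmp2, a bone-inducing ligand, had 39.0 and 35.9 CPM against 0.127 and 0.491 CPM, and Id3, a direct target of BMP signalling, 148 and 176 CPM against 1.40 and 0.848 CPM. In the list of FGF, PDGF and VEGF genes 14 of 27 were higher, 3 lower and 10 not called (median 2.23, 13 and 3 with both libraries left out). Fgf7 and Fgf10, mesenchymal ligands that act on epithelium, were higher: Fgf7 had 1068 and 1037 CPM against 1.62 and 1.07 CPM and Fgf10 158 and 136 CPM against 0.35 and 0.892 CPM. Fgf1 (-5.0 ± 0.29) and the hepatocyte growth factor receptor Met, with 9.13 and 9.78 CPM against 95.7 and 93.3 CPM, were lower.

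Of 40 tested Wnt pathway genes 11 were higher, 9 were lower and 20 were not called (median 1.0, 11 and 7 with both libraries left out). These counts are not far from the shares among all tested genes, 19.1% higher and 18.7% lower. The secreted inhibitors went both ways. Sfrp1 had 0.548 and 0.317 CPM in DCC control and 789 and 693 CPM in the early lesion (-10.80 ± 0.30, adjusted p = 1.01e-08), whereas Wif1 had 89.4 and 84.0 CPM against 0 and 0.223 CPM (9.77 ± 0.62). Sfrp4 had 33.6 and 45.6 CPM against 1 count over both lesion libraries, a ratio of 2203 (95% counting interval 395 to 87060). Axin2, a feedback target of canonical Wnt signalling, had 10.6 and 14.0 CPM against 0.191 and 1.07 CPM (4.32 ± 0.82, adjusted p = 0.00238). Of 22 Notch and Hippo genes 6 were lower, 5 were higher and 11 were not called (median 0.33, 5 and 3 with both libraries left out). The counts of this list, too, are not far from the shares among all tested genes. The Notch ligand Dll1 had 3.04 and 5.62 CPM against 353 and 292 CPM. The Notch targets Hes1 (-2.43 ± 0.17) and Hey1 (-4.23 ± 0.21) were also lower.

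Binding proteins of insulin-like growth factors differed in both directions. Igfbp5, abundant in mammary involution and in bone, had 1.58 and 0.436 CPM in DCC control and 1344 and 1138 CPM in the early lesion (-10.38 ± 0.57), and Igfbp4 had 428 and 426 CPM against 39.8 and 39.9 CPM (3.42 ± 0.25). The groups did not overlap for either gene. The ligand genes Igf1 and Igf2 were under 4 CPM in every library and not called. Of 12 genes of this list 4 were higher, 2 lower and 6 not called (median 2.12, 3 and 2 with both libraries left out). Imprinted genes, which are expressed from one parental copy, divided in the same manner, with 5 of 19 higher, 3 lower and 11 not called (median 2.19, 5 and 3 with both libraries left out). Among all tested genes 19.1% were higher and 18.7% lower, so these counts lie near the background and are no trait of imprinted genes. Peg10, a gene of retrotransposon origin, had 1738 and 1910 CPM against 0.0318 and 1.07 CPM, and its neighbour Sgce had 105 and 125 CPM against 0.0954 and 0.134 CPM. Peg3, a zinc finger gene, had 25.4 and 42.5 CPM against 1223 and 1051 CPM (-5.06 ± 0.40).

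Hox genes, which mark position along the body, differed by cluster. Of 32 tested 14 were higher, 6 were lower and 12 were not called (median 2.92, 13 and 5 with both libraries left out). In the Hoxc cluster 8 of 9 were higher, with a summed level of 214 and 211 CPM in DCC control and 0 and 2.68 CPM in the early lesion. Hoxc10 had 59.0 and 55.8 CPM against 0 and 0.58 CPM (7.81 ± 0.85), and Hoxc6 had 18 and 18.3 CPM against 2 counts over both lesion libraries, a ratio of 490 (95% counting interval 135 to 4053). In the Hoxb cluster 3 of 7 tested were lower and 4 were not called, with sums of 4.87 and 3.09 CPM against 27.7 and 34.0 CPM. The Hoxa cluster was mixed, with 5 higher and 3 lower of 12. Hoxa10 had 52.6 and 52.9 CPM against 0 and 0.535 CPM, and Hoxa5 14.7 and 11.6 CPM against 30.9 and 24.4 CPM.

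Of 18 tested genes of Gas6 signalling and of dormancy regulators, studied as controls of growth arrest in marrow, 9 were higher, 5 were lower and 4 were not called (median 0.60, 7 and 3 with both libraries left out). Gas6, the ligand of the receptors Axl, Mertk and Tyro3, had 38.8 and 45.1 CPM in DCC control and 6.74 and 8.34 CPM in the early lesion (2.48 ± 0.39). Axl had 109 and 119 CPM against 0.0318 and 1.03 CPM (7.93 ± 0.73, adjusted p = 2.38e-04), while Mertk was not called (2.13 and 2.22 CPM against 4.32 and 4.86 CPM). Nr2f1, an orphan receptor tied to dormancy in other models, had 94.1 and 99.4 CPM against 0.794 and 1.03 CPM (6.74 ± 0.24). Tgfb2 and Rarb, named with it as dormancy genes, were lower, Rarb with 1.03 and 1.58 CPM against 32.1 and 30.6 CPM. The prostaglandin pathway had 8 of 16 genes higher, 3 lower and 5 not called (median 2.38, 7 and 3 with both libraries left out, and 4 higher once DCC control replicate 2 was removed). Ptgs2, cyclooxygenase 2, had 1047 and 948 CPM against 1.59 and 2.23 CPM (9.04 ± 0.82), and Ptges, prostaglandin E synthase, 27.6 and 35.5 CPM against 0.127 and 0.669 CPM. Slco2a1, the transporter that takes prostaglandins up, had 6.03 and 5.86 CPM against 617 and 613 CPM (-6.69 ± 0.21). Among 40 axon guidance genes, which also steer other migrating cells, 18 were higher, 13 were lower and 9 were not called (median 0.49, 15 and 11 with both libraries left out). The semaphorins Sema3a and Sema3b were opposite in direction, Sema3a with 849 and 966 CPM against 0.0318 and 1.16 CPM and Sema3b with 1.52 and 2.14 CPM against 582 and 546 CPM.

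Genes of the cell cycle were lower in DCC control almost throughout. All 29 tested genes of G2/M and mitosis were lower (median -2.69, 26 with both libraries left out), and 30 of 32 tested genes for G1/S passage and DNA replication were lower (median -2.58, 29 with both left out), with E2f1 and E2f2 not called. Mki67, the standard marker of cycling cells (chromosome 7, 135689784 to 135716361), had 209.9 and 313 CPM in DCC control and 2750 and 2135 CPM in the early lesion (-3.22 ± 0.36, adjusted p = 1.72e-04). DCC control was not without it, since both libraries held over 200 CPM. Ccna2, cyclin A, had 30.9 and 40.7 CPM against 321 and 297 CPM, and Ccnb1, cyclin B, 6.63 and 9.54 CPM against 73.5 and 71.0 CPM. Mcm5, a subunit of the replicative helicase, had 7.61 and 6.89 CPM against 125 and 109.8 CPM, and Rrm2, which makes deoxynucleotides, 9.80 and 9.54 CPM against 127 and 119.8 CPM. The 2 groups did not overlap for any gene of either list. In the TUBO line, grown in culture, Mki67 was at 389 and 300.2 CPM. Whether culture had a part in the cell cycle results was not tested.

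Regulators above the cell cycle were mixed, with 4 of 15 cyclins, kinases and inhibitors higher, 4 lower and 7 not called, and 2 and 2 with both libraries left out. The lower count was also 2 without DCC control replicate 1 alone. The D cyclins Ccnd1 and Ccnd2 differed in opposite directions. Ccnd1, the cyclin induced by Erbb2, had 343 and 404 CPM in DCC control and 1862 and 1700 CPM in the early lesion (-2.25 ± 0.20). Ccnd2 had 652 and 719 CPM against 22.3 and 19.9 CPM (5.02 ± 0.18). Cdkn1a, the inhibitor p21, had 186 and 174 CPM against 65.5 and 60.0 CPM (1.52 ± 0.15, adjusted p = 1.83e-05). Cdkn2a, the locus of p16 and p19Arf, was not called (21.9 and 15.0 CPM against 16.9 and 16.1 CPM), nor was Cdkn1b (88.6 and 66.4 CPM against 108 and 111 CPM). Myc was higher, at 710.0 and 627 CPM against 228 and 209 CPM (1.61 ± 0.17). The counts of p53 targets that follow lie near the shares among all tested genes, 19.1% higher and 18.7% lower. Of 20 p53 targets 4 were higher, 3 were lower and 13 were not called (median 0.46, 2 and 2 with both libraries left out), so Cdkn1a did not move with the list. Trp53 itself differed by 0.49 ± 0.15, and it was not called once any single one of the 4 libraries was removed (adjusted p from 0.0681 to 0.167), nor with both that stood apart left out (0.357).

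Sterol and fatty acid synthesis was lower in DCC control. Of 29 tested genes 25 were lower, 1 was higher and 3 were not called (median -2.08, 21 and 1 with both libraries left out). Sqle, squalene epoxidase, an early enzyme of the sterol branch, had 8.04 and 15.6 CPM in DCC control and 129 and 133 CPM in the early lesion (-3.45 ± 0.28, adjusted p = 1.01e-05). Dhcr7, which acts late in the pathway, had 9.31 and 11.4 CPM against 172 and 174 CPM. Scd1, the desaturase that makes oleate, had 92.3 and 119.6 CPM against 2213 and 1954 CPM (-4.30 ± 0.34), and Fasn, fatty acid synthase, 118 and 113 CPM against 625 and 601 CPM. Fads1, a desaturase of longer chains, was higher, at 148 and 179 CPM against 49.7 and 51.1 CPM. Oxidative phosphorylation differed by little per gene: 19 of 31 were lower and 1 higher, with a median of -0.54. The count of lower genes was 5 with both libraries left out. With single libraries removed it was 8 (replicate 1) and 10 (replicate 2) for DCC control, and 8 (replicate 1) and 12 (replicate 2) for the early lesion. Of 24 glycolysis and hypoxia genes 8 were higher, 9 lower and 7 not called (median -0.38, 6 and 6 with both libraries left out), and 5 were higher without DCC control replicate 1 and also without early lesion replicate 1. The hexokinases Hk1 and Hk2 differed in opposite directions. Hk1 had 56.7 and 69.8 CPM against 558 and 496 CPM, and Hk2 had 54.3 and 53.7 CPM against 8.20 and 9.59 CPM. Aldoc, an aldolase, had 7.12 and 11.8 CPM against 865 and 802 CPM.

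Part of the stress response genes were higher in DCC control. Of 22 genes of the unfolded protein and integrated stress responses 11 were higher, 4 were lower and 7 were not called (median 0.79, 11 and 2 with both libraries left out), and 2 were lower whichever single library was left out. Atf4, the transcription factor of the integrated stress response, had 513 and 559.5 CPM in DCC control and 149 and 138 CPM in the early lesion (1.90 ± 0.16, adjusted p = 6.22e-06). Its targets Ddit3, the factor Chop, had 367 and 330.3 CPM against 9.25 and 7.18 CPM, and Chac1, which degrades glutathione, 162 and 154 CPM against 2.45 and 2.32 CPM. Asns, asparagine synthetase, had 361 and 430.5 CPM against 28.3 and 24.4 CPM, and Slc7a11, the cystine transporter, 79.3 and 75.1 CPM against 2.57 and 4.19 CPM. Among chaperones of the endoplasmic reticulum, Hspa5, BiP, was not called (0.53 ± 0.27, adjusted p = 0.16) and Manf, secreted on endoplasmic reticulum stress, was lower, at 82.8 and 79.1 CPM against 218 and 208 CPM. Of 14 heat shock genes 3 were higher and 6 lower, and 0 and 2 with both libraries left out. The lower count was 3 with DCC control replicate 1 or early lesion replicate 1 removed, and the higher count was 1 with early lesion replicate 2 removed. Of 20 immediate-early and AP-1 genes 9 were higher, 5 lower and 6 not called, and 6 and 1 with both libraries left out. With single libraries removed, the lower count was 1 (DCC control replicate 1), 2 (DCC control replicate 2) and 2 (early lesion replicate 1). Fosl1, an AP-1 member of invasive cells, had 93.6 and 86.1 CPM against 1.02 and 2.05 CPM (5.91 ± 0.32), and Fosl2 had 473 and 416 CPM against 34.3 and 35.6 CPM.

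Interferon-stimulated genes were low in both groups, with sums of 186 and 202 CPM in DCC control and 329 and 309 CPM in the early lesion. Of 29 tested 7 were lower, 1 was higher and 21 were not called (median -0.61, 3 and 1 with both libraries left out). The lower count was 4 without DCC control replicate 1 and 3 without early lesion replicate 1, and none was higher once either early lesion library was removed. Ifih1, a sensor of double-stranded RNA, had 8.16 and 5.58 CPM against 45.1 and 41.8 CPM, and Irf1 was not called (10.8 and 16.6 CPM against 20.9 and 19.7 CPM), although it was lower without DCC control replicate 2 (adjusted p = 0.0135). Of the interferon-gamma receptor genes Ifngr1 was not called (26.7 and 33.4 CPM against 31.0 and 30.6 CPM), and Ifngr2 was higher by 0.61 ± 0.18 (adjusted p = 0.0191), a call gone once DCC control replicate 2 (0.14), early lesion replicate 1 (0.0669), early lesion replicate 2 (0.132) or both libraries that stood apart (0.174) were removed. Genes of antigen presentation by MHC class I were mixed: 8 of 18 were higher, 4 lower and 6 not called (median 0.43, 8 and 3 with both left out). B2m, the light chain of all class I molecules, had 1377 and 1458 CPM in DCC control and 522 and 420.3 CPM in the early lesion (1.59 ± 0.25), and H2-D1 had 53.6 and 46.1 CPM against 9.34 and 9.63 CPM, with reads uncertain between near-identical class I genes. Nlrc5, the activator of class I genes, had 20.6 and 25.4 CPM against 0.89 and 1.61 CPM. H2-T23, a non-classical member, was lower, at 6.15 and 4.99 CPM against 32.8 and 36.4 CPM. Cd274, the checkpoint ligand PD-L1, was not called, with 43.5 and 13.4 CPM against 1.49 and 15.3 CPM, so that the groups overlapped.

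Secreted inflammatory factors and complement followed no single order. Of 25 chemokines and cytokines tested 7 were higher, 3 lower and 15 not called (median 0.54, 9 and 3 with both libraries left out). Cxcl14, a chemokine of stroma, had 166 and 184 CPM in DCC control and 0 and 0.268 CPM in the early lesion, and Ccl7, which draws monocytes, 19.1 and 16.6 CPM against 0 and 0.312 CPM. Lif (2.01 and 2.50 CPM against 54.9 and 54.1 CPM) and Csf3 (0.548 and 0 CPM against 28.7 and 29.8 CPM), a cytokine of the interleukin 6 family and the growth factor of neutrophils, were lower. Of 15 complement genes 7 were higher and 1 lower (median 2.80, 7 and 2 with both libraries left out, and 2 lower once either DCC control library was removed). C4b, a component of the classical pathway, had 117 and 120.5 CPM against 0.35 and 0.981 CPM.

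Markers of other cells were looked for in both groups. Of 10 pan-leukocyte markers 7 were higher in DCC control and 1 lower, with sums of 53.6 and 46.3 CPM against 19.3 and 23.7 CPM (8 and 1 with both libraries left out, but 4 higher with replicate 1 of DCC control removed and 3 with replicate 2 removed). Ptprc, CD45, the defining one, was not called, with 7.24 and 2.69 CPM against 0 and 1.20 CPM, but it was higher without early lesion replicate 1 (adjusted p = 0.0441), without early lesion replicate 2 (6.35e-04) and with both libraries left out (5.26e-04). Of 14 tested macrophage and monocyte markers 9 were higher and 1 lower (10 and 1 with both left out, and 2 lower once DCC control replicate 1 was removed), with sums of 135 and 134 CPM against 111 and 119 CPM. Csf1r, the receptor of Csf1, had 18.5 and 16.9 CPM against 0 and 0.624 CPM, and C1qb, a complement gene of macrophages, 13.4 and 14.5 CPM against 1 count over both lesion libraries (ratio 759, 95% counting interval 136 to 30020). Of 16 listed markers 14 were found in the count table by symbol. Adgre1 and Spi1, which define the lineage, were not analysed here. Cd14 was lower, at 12.3 and 11.3 CPM against 94.1 and 98.1 CPM, and it made up most of the early lesion sums of these markers. The part of these cells in the class II, complement and chemokine genes above was not tested. Of 10 MHC class II genes 5 were higher and 1 lower (6 and 1 with both left out, but 3 higher once either DCC control library was removed, and 2 lower once replicate 1 was), and H2-Ab1 was at 6.51 and 5.27 CPM against 0 and 0.178 CPM. Of 9 tested endothelial markers none was higher in edgeR's test and 1, Plvap, was lower, also with both libraries left out, while 1 was higher at an unadjusted p under 0.05 and 1 in DESeq2. Pecam1, the defining one, had 1.16 and 0.238 CPM against 0.0636 and 0.981 CPM. None of 2 tested T and NK cell markers, 1 B cell marker and 5 skeletal muscle markers was called by edgeR, at an unadjusted p under 0.05 or by DESeq2, and of 3 erythroid and megakaryocyte markers none was called by edgeR and 1 was higher at an unadjusted p under 0.05, 1 in DESeq2 and 1 once early lesion replicate 2 was removed. With both libraries left out none of these 4 lists held a called gene. Of 6 tested osteoclast markers 1, Ctsk, was higher and 1, Acp5, was lower (1 and 1 with both libraries left out), but none was higher once either DCC control library or early lesion replicate 1 was removed, and none was lower once early lesion replicate 2 was. Of 4 tested neutrophil and mast cell markers only Kit, given above, was called. For every other list above in which no gene was called in one direction, the unadjusted p and DESeq2 gave 0 in that direction as well, except the basal keratins.

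Some of the largest differences lay outside these lists. Penk, the precursor of enkephalin peptides (chromosome 4, 4133531 to 4138819), had 255 and 315 CPM in DCC control and no count in the early lesion, at least 2488-fold higher. Rasl11a, a Ras-like gene, had 38.2 and 35.8 CPM and no count in the lesion (at least 323-fold), and Gpx7, a peroxidase of the endoplasmic reticulum, 22.5 and 24.7 CPM and no count (at least 206-fold). Each of these was above 20 CPM in both DCC control libraries. Rcn3, a calcium-binding protein of the secretory pathway that takes part in collagen folding, had 265 and 261 CPM against 3 counts over both lesion libraries, a ratio of 4717 (95% counting interval 1614 to 22880). In the other direction, Rbp7, a retinol carrier, had no count in DCC control and 74.6 and 59.5 CPM in the early lesion, at least 445-fold lower. Cytl1, a secreted cytokine-like protein, had no count against 65.3 and 59.5 CPM (at least 414-fold lower). Ceacam10 had no count against 49.5 and 45.6 CPM (at least 315-fold lower), Cited4, a transcriptional co-activator, none against 22.3 and 20.0 CPM (at least 140-fold) and Gzme, a granzyme, none against 12.2 and 10.1 CPM (at least 73.9-fold). Fxyd3, a regulator of the sodium pump in epithelia, had 0.183 and 0.0792 CPM against 391 and 356 CPM (-11.54 ± 0.34). In all, 9 genes had no count in DCC control with at least 10 CPM on average in the early lesion, and 5 the reverse.

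The lists together held 942 different tested genes, of which 314 were called higher, 292 lower and 336 not called. In the pair of libraries with the fewest reads outside genes, DCC control replicate 2 over early lesion replicate 1, all 314 had a ratio above 1 and all 292 a ratio below 1. These libraries are part of the fit, so this is a description of how the calls look in them and not a separate test.

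**Figure D4:**
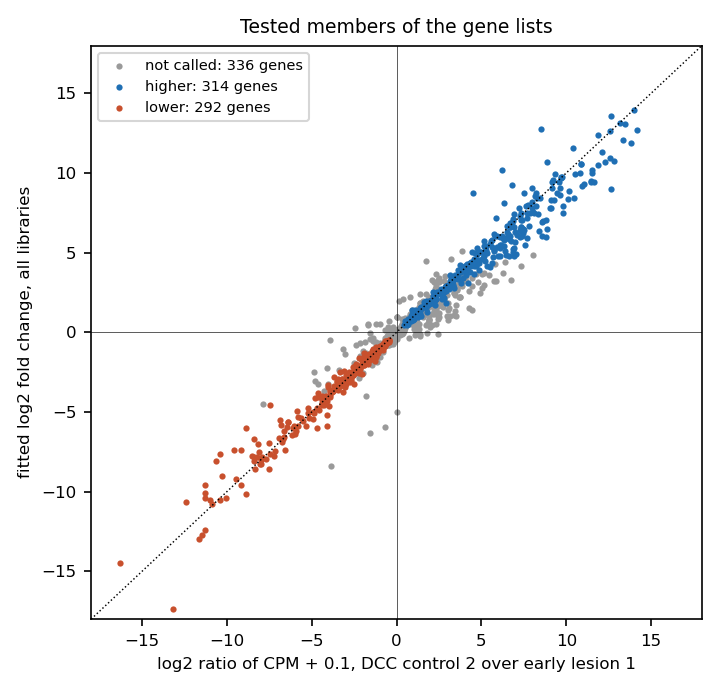
Fitted log2 fold change from all libraries (vertical axis) against the log2 ratio of CPM plus 0.1 in DCC control replicate 2 over early lesion replicate 1 (horizontal axis) for 942 tested genes of the lists, with 314 called higher in blue, 292 called lower in red and 336 not called in grey. The dotted line marks equal values, and no blue point lies left of 0 and no red point right of it.

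**Figure D5:**
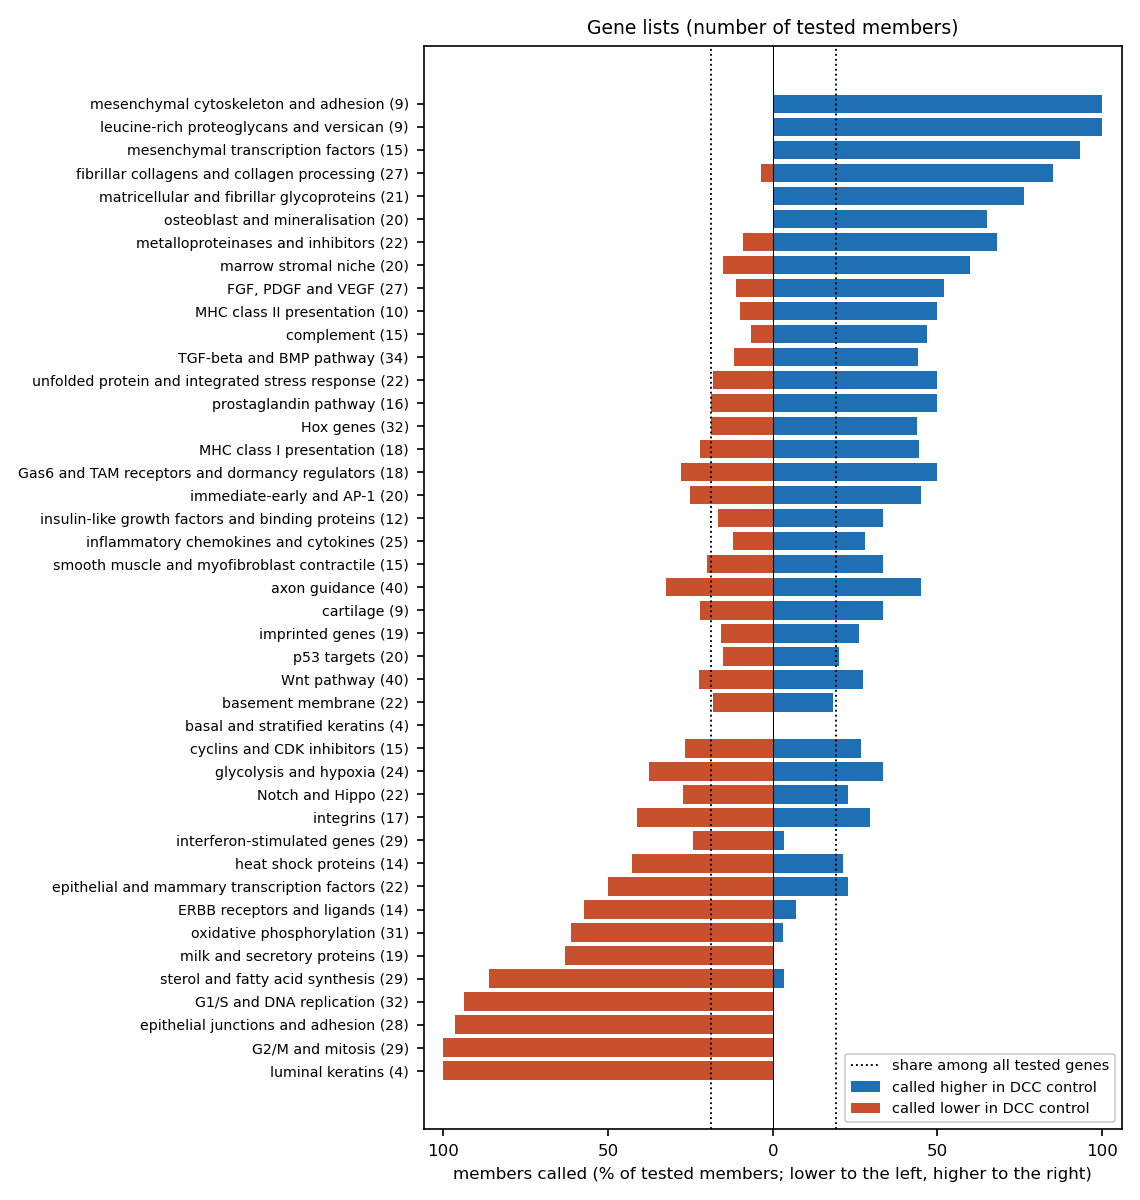
Share of the tested members of each gene list that were called higher (blue, to the right) or lower (red, to the left) in DCC control, in percent, with the number of tested members in brackets and dotted lines at the shares among all tested genes (19.1% higher and 18.7% lower). Luminal keratins, epithelial junctions and both cell cycle lists reach almost to the left edge, and mesenchymal, proteoglycan and collagen lists to the right, while basement membrane genes lie near both dotted lines.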

How the data were processed

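The series holds RNA-seq of 8 mouse libraries, 2 per group. The labels' protocols name RNeasy columns for the RNA and a Nugen Ovation kit for the libraries. The authors deposited 1 table of raw counts of reads per gene symbol. Per the submitters' processing notes, TopHat, HTSeq 0.6.1 and mm10 were used, while annotation, strand setting and filters are not given in the sources used here. Reads of overlapping, antisense and near-identical genes are therefore uncertain. The table held 23478 gene rows and 5 closing rows of reads assigned to no gene, which entered neither library sizes nor tests and held 63.7% and 45.1% of reads in DCC control and 38.9% and 57.2% in the early lesion. Of the symbols 27 read like dates and 2 were repeats.

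CPM were computed with TMM-normalised library sizes. The main test was the quasi-likelihood test of edgeR 4.0.16 (R 4.3.3), robust, with 1 mean per group over the 8 libraries (4 residual degrees of freedom) and the filterByExpr filter at 10 counts, which kept 17069 genes. The biological coefficient of variation was 0.416 in common. Genes with a Benjamini-Hochberg adjusted p under 0.05, over all tested genes, were called, and the standard error (SE) of a log2 fold change is its size over the root of F. The chi-square of replicate counts per degree of freedom was 17.4 in DCC control and 18.5 in the early lesion, above sampling noise. A technical difference between libraries can also raise it, so it does not show that replicates came from separate animals or cultures. The replicates, labelled as biological, were counted as separate samples. Intervals and detection limits of 3 counts per library cover counting error only, at a confidence level of 95% (exact binomial), because PCR copies of 1 molecule cannot be recognised in these counts. A group at 0 is given as a bound against these limits.

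Members and gene lists (56 lists, 1042 entries, 8 not in the table) were chosen with earlier results of these data known and support nothing by themselves; they are described by counts and medians, without a set test. No list median changed at the printed digits when genes of a group at 0 were set to their bound. The genes to be named were the 12 largest called increases and decreases with at least 10 CPM in the higher group and no overlap, leaving out predicted names and near-identical families, the leading members of each list, and a panel. Only part of them are given, and some others, among them Dusp6 and Etv5, were chosen after their values were seen. Coordinates come from GENCODE M21 on GRCm38 (21835 of 23478 symbols matched 1 gene) and promoters from RefSeq on GRCm38.p6 (12347 of 17069 tested genes matched). The script was tested on simulated data. Alternatives were other scalings and filters, a fit of the 4 libraries, a replicate block, DESeq2 1.42.0, glmTreat, and leaving out libraries.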

Additional observations from a re-analysis of the deposited data

How the results depend on the processing

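Against 3253 genes higher and 3188 lower in DCC control, RLE and upper quartile factors, no filter, 2 stricter filters, a fit of the 4 libraries alone and DESeq2 gave 3290 to 3813 higher and 3016 to 3929 lower. The test against a 2-fold change (glmTreat) left 1486 and 1594. Leaving out both libraries with most reads outside genes left 2054 and 2058, of which 1871 and 2008 were among the genes called with all libraries. Leaving out 1 library at a time gave 2303 to 2810 higher and 2396 to 2706 lower, from fits with 1 library in a group and less power. No called gene changed its sign under any of these. The replicate numbers have no stated pairing. Replicates 1 of both groups deviated in opposite directions over genes (r = -0.41). The replicate block gave 3165 higher and 3151 lower. In a fit of the 4 libraries the block gave 3028 and 3600, and with the numbers crossed, chosen after seeing the data, 3317 and 3855. DESeq2 gave no adjusted p for 2979 genes. Depth limits genes near 0.1 CPM, where early lesion replicate 2 often held counts that replicate 1 did not.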

Other observations

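Families collected by gene symbol, chosen after their values were seen and outside the lists of the report, also differed. Of 82 tested ribosomal protein genes 43 were higher in DCC control and 39 were not called, with a median log2 fold change of 0.70 beside 0.23 for all tested genes. Their summed level was 63640 and 68490 CPM in DCC control and 41360 and 37450 CPM in the early lesion. Rpl12, a protein of the large subunit, differed by 1.29 ± 0.26, a call lost with both libraries with most reads outside genes left out (adjusted p = 0.0871). Of 58 tested histone genes 45 were lower and 13 were not called (median -1.97), with sums of 1739 and 1785 CPM against 4026 and 3784 CPM. Most histone genes are transcribed as DNA is copied. The G1/S list was lower in the same libraries, and a link between these results was not tested.

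Sox10 was not alone among genes known from glia and neural crest. Mbp, myelin basic protein, had 2.86 and 1.78 CPM in DCC control and 28.2 and 28.4 CPM in the early lesion (-3.63 ± 0.29), while S100b, a calcium-binding protein of glia and cartilage, had 28.6 and 41.4 CPM against 0.35 and 0.535 CPM (6.32 ± 0.75). Of the sex-linked genes, Xist had 2576 and 2626 CPM against 2855 and 2566 CPM and was not called, and 4 Y-linked genes had no count in any of the 4 libraries.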
